A study of Mus musculus with 6 samples.

Results

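The genes *Foxo1*, *Foxo3*, *Foxo4*, *Klf2*, *Klf3*, *Klf6*, *Klf13*, *Btg1*, *Tob1* and *Pik3ip1* were followed in activated B cells that lack hnRNPL. They were grouped as FoxO, KLF and lymphocyte quiescence regulators, and not each of them is known to hold lymphocytes at rest. They comprise 3 FoxO transcription factors, 4 Krüppel-like factors (KLF), 2 antiproliferative genes of the BTG/TOB family and an inhibitor of PI3K. They were chosen by name as the rows of the gene table with these symbols, and all 10 were found among the 55421 listed genes. Splenic B cells were activated ex vivo for 24 h with LPS (5 µg/ml) and IL-4 (5 ng/ml), and GFP+ cells were then sorted for RNA-seq with 1 library per mouse. There were 3 WT mice with CD21-cre and 3 hnRNPL-deficient mice with CD21-cre and homozygous floxed *Hnrnpl* (*Hnrnpl* F/F). Both groups carried the Cre and the Rosa mT/mG reporter, which turns cells GFP+ once Cre has been active, on a C57BL6/J background, and mice of either sex were used. CD21-cre acts mainly in mature B cells, so *Hnrnpl* is deleted mainly late in B cell maturation, and sorting for the reporter selects cells that had Cre activity and not cells proven to lack the protein. Per the study's methods the mice were over 6 weeks old, and the age of each mouse is not given in the sources used here.

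FoxO proteins are forkhead factors that are held out of the nucleus once the PI3K and AKT kinases, which antigen receptors and mitogens turn on, have phosphorylated them. In resting lymphocytes they sit in the nucleus and support genes of cell cycle arrest, survival, homing and stress resistance. KLF2 and its relatives are zinc finger factors that bind GC-rich or CACCC elements, and KLF2 supports quiescence and the exit receptors of lymphoid tissue. BTG1 and TOB1 bring the CCR4-NOT deadenylase complex to mRNAs and slow proliferation, and PIK3IP1 is a membrane protein that restrains PI3K.

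Values are normalized counts, that is, reads per gene divided by a size factor for each library. The libraries held 40395186 to 75180749 reads on genes, and the 10 genes had from 54 to 11147 reads per library. *Hnrnpl* had 24371, 25580 and 24174 normalized counts in WT libraries and 2178, 1519 and 1297 in hnRNPL-deficient libraries, 6.74% of the WT mean. The summed level of 7 B cell markers was 287125 to 366766 in WT and 280251 to 331421 in hnRNPL-deficient cells. Of the listed T, NK, neutrophil and macrophage markers, *Adgre1* alone was both abundant and changed. It had 236, 282 and 315 normalized counts in WT and 1217, 1337 and 1369 in hnRNPL-deficient cells (log2 fold change 2.24, adjusted p = 1.39e-04 from limma), while *Lyz2*, *Cd14* and *Csf1r* did not pass 6.85 in any library. Summed T cell markers were between 38.8 and 51.9 in the 6 libraries, and those of NK cells and neutrophils did not pass 8.11. Of the erythroid markers *Hbb-bt* was called higher, with sums of 16.1 to 33.7 and 52.3 to 83.8, and of the plasma cell markers *Jchain* was called lower. *Xist*, read from the inactive X chromosome, was high in 1 library of each group, WT library 3 and hnRNPL-deficient library 2. Among 6 listed marginal zone genes, *Cr2* and *Cd1d1* were called higher in hnRNPL-deficient cells (33.3%, against 7.28% of all genes). *Dtx1* was called lower (16.7%, against 4.08%). *S1pr3*, also on this list, was lower by less than 1.5-fold (log2 fold change -0.43, adjusted p = 0.0198 from limma). The part of these shifts in the values given here was not tested.

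As a group, the 10 genes leaned towards higher levels in hnRNPL-deficient cells without moving as one. *Foxo3* and *Tob1* rose, *Foxo1* and *Klf6* were higher and *Klf3* and *Klf13* lower at an adjusted p under 0.1 but by less than 1.5-fold, and the other genes had an adjusted p of at least 0.1. A gene was called changed when the limma test on log2(normalized count + 1) gave a Benjamini-Hochberg adjusted p under 0.1 and the fold change was at least 1.5, which is 0.585 on the log2 scale. With limma, 2 of 10 genes were called higher, against 7.28% of the 17640 genes tested, and 0 of 10 were called lower, against 4.08%. At an unadjusted p under 0.05 from limma, 5 of 10 were higher and 2 of 10 lower. Of the 17640 genes tested, 4830 passed this limit in either direction. With edgeR and DESeq2, 0 of 10 were called lower as well. At an adjusted p under 0.1 and any fold change, 4 of 10 were higher (10.0% of all tested genes) and 2 of 10 were lower (7.97% of all). The 3 hnRNPL-deficient libraries lay wholly above the WT libraries for 5 genes, a pattern seen in 17.7% of tested genes, and wholly below them for 2 genes, a pattern seen in 16.3%, or 34.0% for both directions. The median log2 fold change of the 10 genes was 0.37, and that of all tested genes was -0.03. In these bulk libraries, a change in the number of cells of one kind and a change in RNA per cell cannot be told apart.

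**Figure D1:**
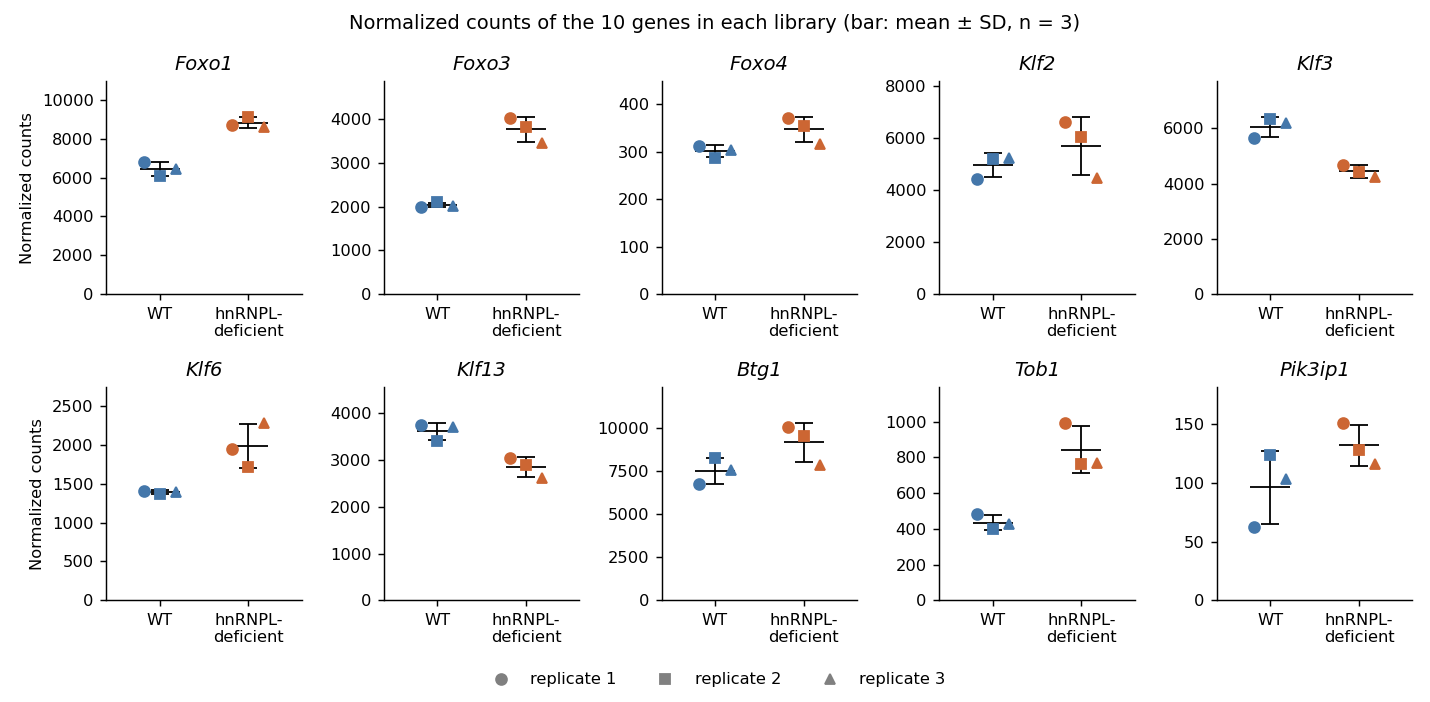
Normalized counts of the 10 genes in each library, with 1 panel per gene and a vertical axis from 0, with bars for the mean ± SD of 3 mice. The groups are apart for *Foxo1*, *Foxo3*, *Foxo4*, *Klf3*, *Klf6*, *Klf13* and *Tob1*, and they overlap for *Klf2*, *Btg1* and *Pik3ip1*.

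*Foxo3*, a FoxO factor tied to cell cycle arrest and to pro-apoptotic and stress resistance genes, had the largest change of the FoxO genes. It lies at chr10:42181841-42276755 on the minus strand of GRCm38. WT mice had 2001, 2094 and 2007 normalized counts, and hnRNPL-deficient mice had 4023, 3823 and 3450. The WT libraries were close to one another and the lowest hnRNPL-deficient library was far above them. The means were 2034 ± 52.1 and 3765 ± 291 (SD, n = 3 mice each), a 1.85-fold rise (95% interval 1.58 to 2.16) with a log2 fold change of 0.89 (SE 0.0989, adjusted p = 0.00159 from limma).

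*Foxo1*, the FoxO factor that B cells need at several stages of development and for homing, differed by less. It lies at chr3:52268336-52353221 on the plus strand. WT libraries had 6820, 6089 and 6447 normalized counts, and hnRNPL-deficient libraries had 8725, 9146 and 8608. The groups did not overlap, and the means of 6452 ± 366 and 8826 ± 283 differed by 0.45 on the log2 scale (SE 0.0896, adjusted p = 0.0163 from limma). The fold change of 1.37 (95% interval 1.19 to 1.58) was under the 1.5-fold limit.

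*Foxo4*, an X-linked FoxO gene (chrX:101254528-101260873, plus strand), had the lowest counts of the FoxO genes. Its libraries had 312, 287 and 304 normalized counts in WT and 370, 353 and 317 in hnRNPL-deficient cells. Every hnRNPL-deficient value was above every WT value, but the gap between 312 and 317 was narrow. The log2 fold change of 0.20 (95% interval -0.14 to 0.54) did not pass the limma test (adjusted p = 0.424). The libraries with high *Xist* held 304 and 353 normalized counts of *Foxo4*, which were neither the highest nor the lowest value of their groups.

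The ratio of *Foxo3* to *Foxo1* was higher in each hnRNPL-deficient library than in any WT library. It was 0.293, 0.344 and 0.311 in WT and 0.461, 0.418 and 0.401 in hnRNPL-deficient cells. The ratios did not overlap, and they differed by 0.43 on the log2 scale with a two-sided exact permutation p of 0.1, the smallest that 3 mice against 3 can give. Per kilobase of exon, which allows genes to be compared with one another, *Foxo1* made up 67.7% ± 1.41 of the FoxO sum in WT and 63.1% ± 1.68 in hnRNPL-deficient cells. *Foxo3* went from 24.5% ± 1.47 to 30.8% ± 1.40 of that sum, and *Foxo1* thus remained the most abundant FoxO transcript in both groups. The FoxO sum itself was 1100 ± 39.8 normalized counts per kilobase in WT and 1615 ± 65.9 in hnRNPL-deficient cells.

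*Pik3ip1*, the PI3K inhibitor (chr11:3330401-3342971, plus strand), was scarce and variable. It had 62.7, 124 and 103 normalized counts in WT and 151, 128 and 117 in hnRNPL-deficient cells. WT library 1, with 54 reads, was the low value, and WT library 2 lay above hnRNPL-deficient library 3. The log2 fold change was 0.49, with a 95% interval from -0.16 to 1.15 (adjusted p = 0.306 from limma). Without WT replicate 1 it was 0.21, so that its size rests on this library.

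None of the KLF genes was called with limma, and edgeR and DESeq2 called *Klf6*. At an adjusted p under 0.1 and any fold change, 1 of 4 was higher (10.0% of all genes) and 2 of 4 were lower (7.97% of all). The numbers of KLF genes were the same at an unadjusted p under 0.05. *Klf2*, the KLF gene most closely tied to lymphocyte quiescence (chr8:72319033-72321656, plus strand), had 4424, 5208 and 5238 normalized counts in WT and 6629, 6064 and 4470 in hnRNPL-deficient cells. The first and the second hnRNPL-deficient libraries were above all WT libraries, whereas the third was close to the lowest WT library. The log2 fold change was 0.19 (95% interval -0.16 to 0.54, adjusted p = 0.461 from limma), and it was 0.36 without hnRNPL-deficient replicate 3 and 0.08 without hnRNPL-deficient replicate 1.

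*Klf6*, a KLF gene induced by many stimuli (chr13:5861482-5870394, plus strand), had 1409, 1368 and 1397 normalized counts in WT and 1943, 1717 and 2284 in hnRNPL-deficient cells. The WT values were tightly grouped, and the hnRNPL-deficient values were spread but all higher. The means of 1391 ± 21.1 and 1981 ± 285 differed by 0.50 on the log2 scale (SE 0.125, adjusted p = 0.0368 from limma), a 1.41-fold change and thus not a call. *Klf6* was called in edgeR and DESeq2 fits, which leave out hnRNPL-deficient replicate 2 and gave log2 fold changes of 0.64 and 0.62, and in limma without that replicate (0.60). The *Klf2* to *Klf6* ratio was 3.14, 3.81 and 3.75 in WT and 3.41, 3.53 and 1.96 in hnRNPL-deficient cells, with overlapping groups and a two-sided exact permutation p of 0.5.

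*Klf3*, which encodes a repressor that can occupy sites of other KLF proteins (chr5:64803388-64832901, plus strand), was lower in hnRNPL-deficient cells. It had 5648, 6344 and 6191 normalized counts in WT and 4691, 4423 and 4228 in hnRNPL-deficient cells. All hnRNPL-deficient values lay below all WT values, and the means of 6061 ± 365 and 4447 ± 232 differed by -0.45 on the log2 scale (SE 0.0945, adjusted p = 0.0208 from limma). This is a fold change of 0.73 (95% interval 0.63 to 0.85).

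*Klf13*, a KLF gene known from its part in T cell chemokine expression (chr7:63886351-63938915, minus strand), was lower by a smaller amount. Its libraries had 3740, 3397 and 3696 normalized counts in WT and 3050, 2886 and 2622 in hnRNPL-deficient cells. The groups did not overlap, and the means were 3611 ± 187 and 2853 ± 216, with a log2 fold change of -0.34 (SE 0.101, adjusted p = 0.0637 from limma). The adjusted p was under 0.1 in 8 of 17 alternative fits and ranged from 0.0281 to 0.190. *Klf13* and *Hnrnpl* are both on chromosome 7, 35.1 Mb apart.

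Per kilobase of exon, *Klf2* made up 66.7% ± 1.93 of the sum of these 4 KLF genes in WT and 71.3% ± 4.51 in hnRNPL-deficient cells. *Klf3* went from 13.4% ± 0.258 to 9.23% ± 0.901 and *Klf13* from 11.98% ± 1.27 to 8.82% ± 0.607, each without overlap between the groups. *Klf6* went from 7.91% ± 0.629 to 10.7% ± 3.03.

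**Figure D2:**
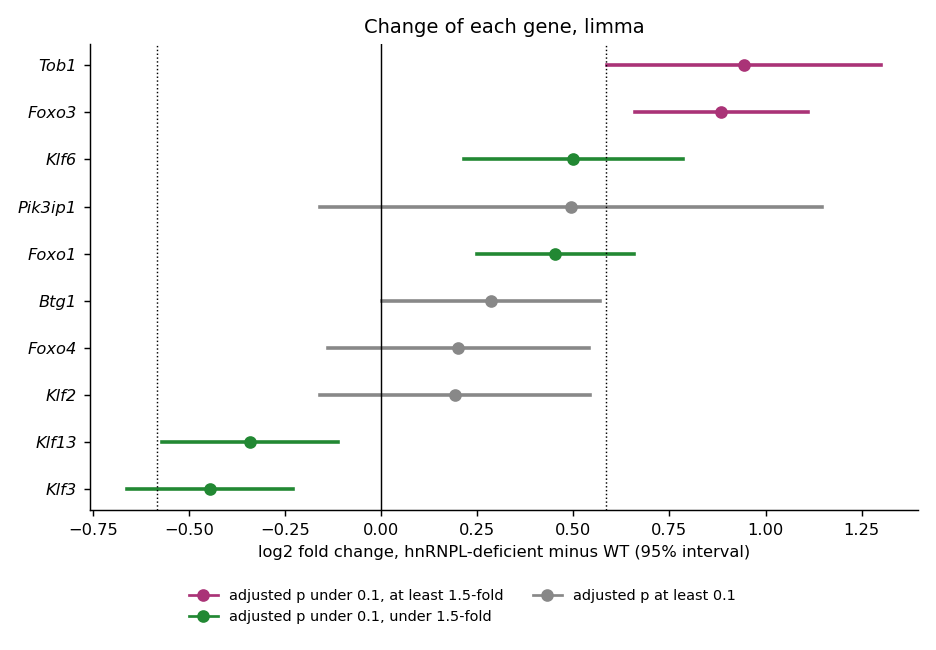
The log2 fold change of each of the 10 genes (horizontal axis, hnRNPL-deficient minus WT) with its 95% interval from limma, ordered by size, with dotted lines at a 1.5-fold change. *Tob1* and *Foxo3* lie past the line with an adjusted p under 0.1, while *Klf6*, *Foxo1*, *Klf13* and *Klf3* have an adjusted p under 0.1 but a smaller change.

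*Tob1*, the antiproliferative gene best known for keeping T cells quiescent (chr11:94211454-94215495, plus strand), had the largest fold change of the 10 genes, with an interval that overlaps that of *Foxo3*. It had 484, 397 and 426 normalized counts in WT and 994, 763 and 769 in hnRNPL-deficient cells. All hnRNPL-deficient libraries were well above the highest WT library. The means of 436 ± 44.3 and 842 ± 132 gave a 1.92-fold rise and a log2 fold change of 0.94 (95% interval 0.59 to 1.30, SE 0.156, adjusted p = 0.00779 from limma).

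*Btg1*, its more abundant relative (chr10:96617006-96622809, plus strand), had 6722, 8226 and 7535 normalized counts in WT and 10050, 9544 and 7866 in hnRNPL-deficient cells. The third hnRNPL-deficient library fell between the WT values. The log2 fold change was 0.29 (SE 0.124, adjusted p = 0.179 from limma), and the 95% interval of the fold change was 1.00 to 1.48. *Btg1* had an adjusted p under 0.1 in 3 of 17 alternative fits.

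The *Tob1* to *Btg1* ratio was 0.0720, 0.0482 and 0.0565 in WT and 0.0990, 0.0800 and 0.0978 in hnRNPL-deficient cells. The groups were apart, with a log2 difference of 0.66 and a two-sided exact permutation p of 0.1. Per kilobase of exon, *Tob1* made up 11.9% ± 2.14 of the sum of both genes in WT and 17.5% ± 1.69 of it in the absence of hnRNPL.

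The hnRNPL-deficient libraries kept an order across the genes. Library 1 was the highest of the 3 for 8 of 10 genes and library 3 was the lowest for 8 of 10, the exceptions to the latter being *Klf6*, which was highest there, and *Tob1*. Library 3 also had the fewest reads and library 1 the most of this group, and the part of depth in this order was not tested. Total normalized counts over all genes had the same order, 5.91e+07, 5.81e+07 and 5.54e+07 in hnRNPL-deficient libraries 1, 2 and 3. The share of all tested genes with this order was not computed, so the order cannot be called particular to these 10 genes.

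Per kilobase of exon, the genes ranged widely in level. In WT cells *Klf2* was the most abundant (2683 ± 250 normalized counts per kilobase), followed by *Btg1* (1420 ± 143) and *Foxo1* (745 ± 42.2). *Klf3* (539 ± 32.5), *Klf13* (480 ± 24.8), *Klf6* (317 ± 4.82), *Foxo3* (269 ± 6.88) and *Tob1* (190 ± 19.4) came next, and *Foxo4* (86.4 ± 3.66) and *Pik3ip1* (22.6 ± 7.27) were the lowest. In hnRNPL-deficient cells *Klf2*, *Btg1* and *Foxo1* were still the top genes, and *Foxo3* at 497 ± 38.4 lay above *Klf3* at 396 ± 20.6 and *Klf13* at 379 ± 28.7. *Klf6* (451 ± 64.9) and *Tob1* (368 ± 57.6) were within the spread of these genes, so that the order in the middle of the range is not resolved. Exon lengths are those of all annotated exons of a gene joined, which is longer than the transcript in use where a gene has several.

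**Figure D3:**
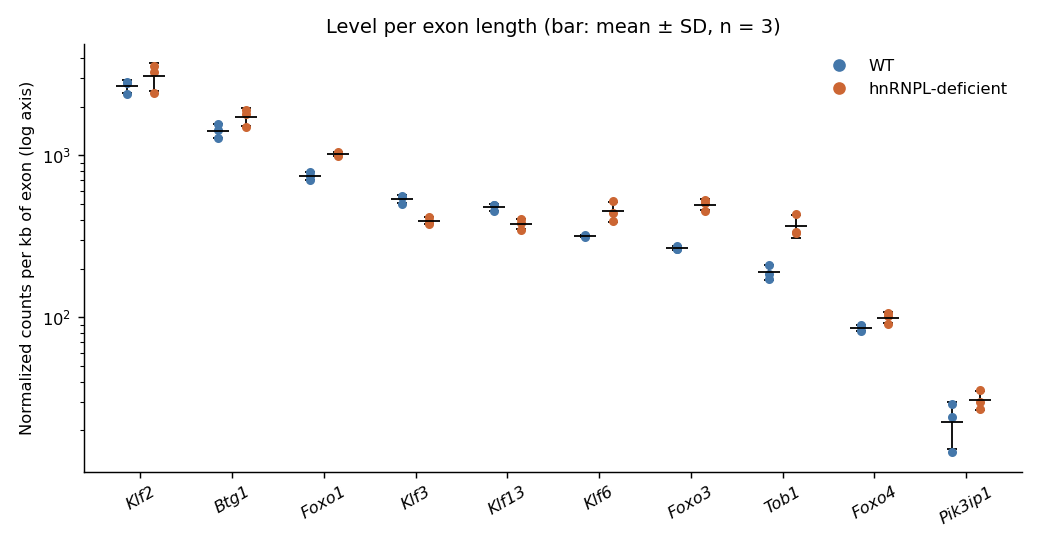
Normalized counts per kilobase of exon on a log axis for the 10 genes, ordered by the WT mean, with 1 point per library and bars for the mean ± SD of 3 mice. *Foxo3*, *Klf6* and *Tob1* in hnRNPL-deficient cells reach the range of *Klf3* and *Klf13*.

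The promoters are shown because the proteins of these families bind DNA elements that can be looked for in them. The 250 bases before the RefSeq start site (GRCm38.p6) were at hand for 9 of the 10 genes, *Foxo4* being the exception. RefSeq starts can differ from the gene coordinates given above, which are from GENCODE. By those coordinates the *Pik3ip1* window (chr11:3330481-3330730) lies within the gene. Other windows lie within it in part, those of *Foxo3* and *Klf3* among them. *Foxo3* and *Tob1* are the called genes, *Klf3* is the gene with the lowest log2 fold change and the most GC boxes, and *Btg1* is the one with a FoxO motif. Capitals mark the FoxO motif (TGTTTAC or, on the other strand, GTAAACA) and the GC box (GGGCGG or CCGCCC), and each line runs 5′ to 3′ on the strand of the gene and ends next to the start site. They are chr10:42276696-42276945 (minus strand), chr11:94211204-94211453, chr5:64803271-64803520 and chr10:96616751-96617000 (plus strand) in this order.
Foxo3: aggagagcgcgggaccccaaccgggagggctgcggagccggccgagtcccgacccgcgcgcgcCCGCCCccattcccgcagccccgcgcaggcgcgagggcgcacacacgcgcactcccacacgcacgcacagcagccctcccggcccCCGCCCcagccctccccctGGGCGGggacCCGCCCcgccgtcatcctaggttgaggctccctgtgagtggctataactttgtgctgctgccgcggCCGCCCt
Tob1: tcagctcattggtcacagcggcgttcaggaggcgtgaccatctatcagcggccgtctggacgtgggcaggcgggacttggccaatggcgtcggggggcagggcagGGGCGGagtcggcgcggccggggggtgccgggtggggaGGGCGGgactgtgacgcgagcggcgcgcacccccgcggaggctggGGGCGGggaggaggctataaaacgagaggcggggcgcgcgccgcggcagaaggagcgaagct
Klf3: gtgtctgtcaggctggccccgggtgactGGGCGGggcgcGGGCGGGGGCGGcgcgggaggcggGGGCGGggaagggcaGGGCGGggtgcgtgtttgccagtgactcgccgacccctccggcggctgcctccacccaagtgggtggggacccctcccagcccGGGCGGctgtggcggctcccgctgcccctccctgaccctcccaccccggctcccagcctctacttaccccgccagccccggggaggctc
Btg1: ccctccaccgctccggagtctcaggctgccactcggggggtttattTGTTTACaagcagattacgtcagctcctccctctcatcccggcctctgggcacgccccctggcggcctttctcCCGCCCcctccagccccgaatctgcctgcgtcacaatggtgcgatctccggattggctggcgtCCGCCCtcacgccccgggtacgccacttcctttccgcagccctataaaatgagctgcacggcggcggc

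The FoxO motif occurred in 1 of 9 promoters, that of *Btg1*, 204 bases before the start site, against 3.17% of 32851 promoters. A GC box occurred in 8 of 9 promoters (32.7% of all), and 4 of 9 had at least 3 of them (8.47% of all), namely *Foxo3* with 5, *Klf3* with 6, *Klf13* with 3 and *Tob1* with 3. The CACCC element of KLF proteins (CACCC or GGGTG), whose matches can share bases with those of the GC box, occurred in 5 of 9 promoters (52.0% of all). It was found 5 times in *Klf3* and 3 times in *Tob1*, so that 2 of 9 had at least 3 of them (6.92% of all). The GC content of the promoters was between 53.6% (*Pik3ip1*) and 78.4% (*Klf3*), against a median of 52.4%, and GC boxes are more frequent in GC-rich sequence. A match is a stretch of letters, and binding was not measured.

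The genes that FoxO proteins are known to regulate were then followed with a list of 35 targets, of which 31 were tested. More of them were higher than lower in hnRNPL-deficient cells, with 11 called higher (35.5% of the tested targets, 7.28% of all genes) and 2 called lower (6.45%, against 4.08% of all). Their median log2 fold change was 0.30. The list was drawn up with earlier results known, that of *Cdkn1a* among them, and its counts are a description.

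*Cdkn1a*, which encodes the cell cycle inhibitor p21, had 440, 553 and 421 normalized counts in WT and 4739, 5193 and 4376 in hnRNPL-deficient cells (log2 fold change 3.34, adjusted p = 2.11e-05 from limma). *Pink1*, a kinase of mitochondrial quality control, had 421, 391 and 503 in WT and 993, 822 and 759 in hnRNPL-deficient cells (0.97, adjusted p = 0.00766 from limma). Both genes were apart between the groups. *Cdkn1a* had the largest log2 fold change of the tested targets, followed by *Il7r* (2.77), a gene of low counts given below. *Ccnd2*, the cyclin of B cell entry into the cycle and a gene that FoxO proteins repress, fell from 190356, 152627 and 143519 to 85346, 73939 and 67868 normalized counts (-1.09, adjusted p = 0.00344 from limma).

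Further called targets are named here after their values were seen. *Bcl2l11* (log2 fold change 0.87), which encodes the pro-apoptotic protein BIM, and *Ccng2* (0.90), an atypical cyclin of arrested cells, were higher in hnRNPL-deficient cells. The same held for *Sesn1* (0.80), an inhibitor of mTORC1, *Fbxo32* (0.74), a ubiquitin ligase subunit, and *Bcl6* (0.64), a transcriptional repressor. *Il7r*, the cytokine receptor of early B cells, was at the edge of detection with 4.64, 2.59 and 3.82 normalized counts in WT and rose to 27.0, 28.3 and 37.0. *Cat*, which encodes catalase, fell with a log2 fold change of -0.74. *Sod2*, also named after its values were seen, was lower by less than 1.5-fold and was not called (-0.40, adjusted p = 0.0523 from limma). As background, *Cdkn1a*, *Ccng2* and *Sesn1* are also known targets of p53. *Cdkn1b*, the classical FoxO target that encodes p27, was not called, with a log2 fold change of 0.22 (adjusted p = 0.274 from limma).

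**Figure D4:**
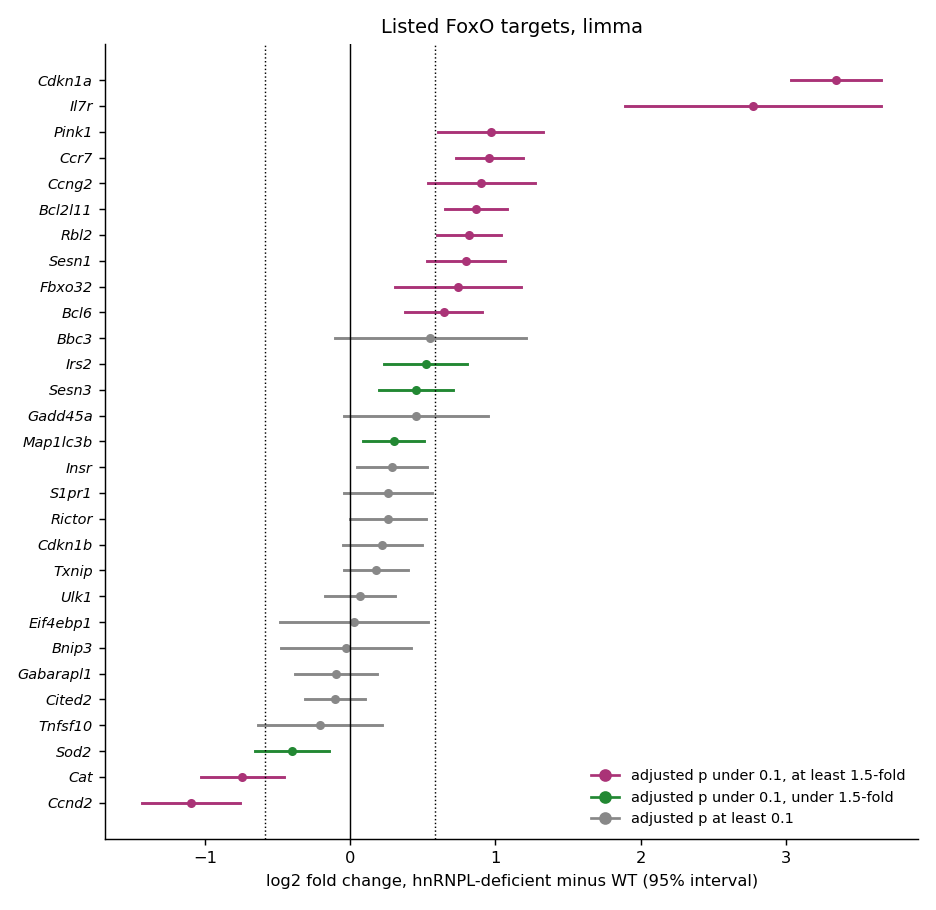
The log2 fold change (horizontal axis, hnRNPL-deficient minus WT) with its 95% interval from limma for 29 of the 31 tested FoxO targets, with dotted lines at a 1.5-fold change. There are 10 called genes to the right of 0 among those drawn, led by *Cdkn1a* at 3.34, and 2 called genes to the left, *Cat* and *Ccnd2*.

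Of 8 homing receptors and related genes linked with KLF2 and FOXO1, 2 were called higher (25.0%, against 7.28% of all genes) and 1 lower (12.5%, against 4.08%). *Ccr7*, the receptor that leads lymphocytes into T cell zones, had 1404, 1576 and 1380 normalized counts in WT and 2788, 2743 and 2922 in hnRNPL-deficient cells (log2 fold change 0.96, adjusted p = 0.00123 from limma), and *Cxcr4* rose as well (0.76, adjusted p = 0.00819 from limma). *Cxcr5*, the receptor for B cell follicles, fell from 23721, 20080 and 19511 to 14607, 13283 and 13441 (-0.61, adjusted p = 0.00955 from limma). *S1pr1*, the exit receptor that KLF2 is known to induce, had a log2 fold change of 0.26, with overlapping groups and an adjusted p of 0.244 from limma.

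Genes that act on PI3K or on FoxO proteins were followed next. Of 14 PI3K subunits and lipid phosphatases, 1 was called lower (7.14%, against 4.08% of all genes), namely *Inpp4b*, a phosphatase that removes PI3K products. It had 3210, 3066 and 3597 normalized counts in WT and 1487, 1835 and 1826 in hnRNPL-deficient cells (log2 fold change -0.94, adjusted p = 0.00291 from limma). The median of the list was -0.18.

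Of 20 genes whose products modify or hold FoxO proteins, 1 was called higher (5.00%, against 7.28% of all genes) and 2 were called lower (10.0%, against 4.08%), with a median of -0.18. *Crebbp*, an acetyltransferase that acts on FoxO proteins, had 31075, 29305 and 30368 normalized counts in WT and 13293, 15727 and 16775 in hnRNPL-deficient cells (log2 fold change -0.99, adjusted p = 0.00148 from limma). *Sirt1*, a deacetylase of FoxO proteins, fell from 2886, 2629 and 2423 to 1123, 1085 and 1256 (-1.19, adjusted p = 8.08e-04 from limma). *Mdm2*, a ubiquitin ligase of FoxO proteins and of p53, rose from 4487, 4218 and 3910 to 6762, 6562 and 6638 (0.66, adjusted p = 0.00374 from limma). *Ep300*, the other listed acetyltransferase and named after its values were seen, had 15582, 16783 and 16201 in WT and 17117, 17553 and 16837 in hnRNPL-deficient cells (0.09, adjusted p = 0.558 from limma). The genes for the AKT kinases were not called.

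The partners of BTG1 and TOB1 were followed next. Of 16 CCR4-NOT and other deadenylation genes, 0 were called, and their median log2 fold change was -0.07. In limma 3 had an adjusted p under 0.1, all lower and under 1.5-fold, against 7.97% of all genes lower at this limit and any fold change. *Cnot10*, a subunit of the complex, had 3367, 3442 and 3374 normalized counts in WT and 2214, 2304 and 2316 in hnRNPL-deficient cells (log2 fold change -0.58, adjusted p = 0.00584 from limma), and is named after its values were seen.

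Of 18 other listed genes of the FoxO, KLF and BTG/TOB families, 12 were tested, and 1 of these was called higher (8.33%, against 7.28% of all genes) and 1 lower (8.33%, against 4.08%). Their median log2 fold change was -0.23, and 3 of 12 had a positive one. *Btg2*, a relative of *Btg1* and a p53 target, was called higher, with 1604, 2123 and 1961 normalized counts in WT and 3428, 3490 and 2592 in hnRNPL-deficient cells (log2 fold change 0.74, adjusted p = 0.0198 from limma). *Klf4*, at lower counts and named after its values were seen, was called lower, with 48.7, 64.0 and 64.2 in WT and 21.6, 24.2 and 30.2 in hnRNPL-deficient cells (-1.19, adjusted p = 0.0336 from limma). At an adjusted p under 0.1 and any fold change, 1 was higher and 3 were lower, against 10.0% and 7.97% of all genes. *Klf10* and *Klf16*, named after their values were seen, were lower by less than 1.5-fold. Their log2 fold changes were -0.48 and -0.51 (adjusted p = 0.0807 and 0.0862 from limma), without overlap between the groups. *Tob2* and *Btg3* had log2 fold changes of -0.16 and -0.30 and did not pass the limma test (adjusted p = 0.324 and 0.187).

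Of 17 other genes linked with quiescence, 3 were called higher (17.6%, against 7.28% of all genes). At an adjusted p under 0.1 and any fold change, 5 were higher and 3 lower, against 10.0% and 7.97% of all genes. *Vsir*, which encodes the checkpoint receptor VISTA, had 126, 121 and 129 normalized counts in WT and 648, 566 and 548 in hnRNPL-deficient cells (log2 fold change 2.21, adjusted p = 2.03e-04 from limma). *Rbl2*, the pocket protein of resting cells and a FoxO target, rose from 1830, 1719 and 1630 to 3109, 3048 and 2959 (0.82, adjusted p = 0.00201 from limma). *Tsc22d3*, the glucocorticoid-induced leucine zipper, rose from 385, 516 and 548 to 842, 742 and 673 (0.65, adjusted p = 0.0452 from limma). These genes were apart between the groups, and the median of the 17 was 0.13.

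Of 18 genes of B cell activation, 1 was called higher (5.56%, against 7.28% of all genes) and 2 were called lower (11.1%, against 4.08%), with a median of -0.19. *Cd80*, a costimulatory ligand, rose from 136, 112 and 98.7 normalized counts to 1294, 1164 and 1689 (log2 fold change 3.57, adjusted p = 4.32e-05 from limma). *Nfkbid*, an inhibitor of NF-κB that activation induces, fell (-0.64, adjusted p = 0.0404 from limma), as did *Ccnd2*, given above.

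Across the 6 libraries, the genes whose log2 values were most like those of *Foxo3* were *Spn* (Pearson r = 0.9998), which encodes the surface mucin CD43, and *Heatr5b* (r = 0.9996), among the 13882 genes whose mean reached 50 normalized counts. For *Tob1* they were *Paip2* (r = 0.999) and *Pitpnc1* (r = 0.998). The 6 points are 3 libraries of each group, so any gene with a like step between the groups ranks high, and these values describe the libraries only.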

How the data were processed

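RNA-seq of GFP+ splenic B cells from 3 WT and 3 hnRNPL-deficient mice was analysed, grouped by the labels. The other assays of the study were not used here. The authors trimmed reads with fastp 0.23.1, aligned them to mm10 with STAR 2.7.9a, counted them per gene by strand with featureCounts and GENCODE M23, and divided the counts by DESeq2 1.38.2 size factors. What they deposited is this scaled signal, on a linear scale and called normalized counts here. Not used were the authors' own comparison columns in the deposited table, which hold log2 fold changes, their errors, a score for each test and its raw and adjusted p-values.

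Genes with a mean of at least 10 were tested with limma 3.58.1 (R 4.3.3) on log2(normalized count + 1), the variance following a trend on the mean, and p-values were adjusted over all 17640 genes. Fold changes on this scale understate those of low genes. All values were whole multiples of 1 read (within 0.01 reads), but the automatic test does not read the column of hnRNPL-deficient library 2, so edgeR 4.0.16 with TMM and DESeq2 1.42.0 were run on the reads of 5 libraries only. Fits were tested on simulated data. Depth was 40395186 to 75180749 reads on genes per library. Gene coordinates and exon lengths are from GENCODE M21 on GRCm38, which matched 17615 of 17640 tested genes, and promoters are from RefSeq.

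The 10 genes and all lists were chosen with earlier results of these data known. All 10 genes are named. From each list the called genes whose mean reached 50 are named, at most 4 by size of change, and so are *Hnrnpl*, *Xist* and, for each called gene of the 10, the 2 genes of highest correlation. Others are marked or serve as a check of cell type. A few listed genes enter the counts but are not reported here by name.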

Additional observations from a re-analysis of the deposited data

How the results depend on the processing

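*Foxo3* and *Tob1* were called higher in all 17 alternative fits, which changed the pseudocount, the filter, the scaling, the variance model, the tool or the libraries, with a covariate for *Xist* or the replicate number as a block. *Foxo1* and *Klf3* had an adjusted p under 0.1 in all 17 without reaching 1.5-fold. No direction of the 10 genes reversed. Fits that each dropped 1 library all rested on fewer samples than the main fit. In them the genes called higher numbered 830 to 1111 (1284 with all libraries) and those called lower 478 to 696 (719 with all). Both counts were lowest without WT replicate 3. Of the 10 genes, 2 to 3 were called higher in these fits. At an adjusted p under 0.05 and at least 2-fold, 610 genes were higher and 216 lower, and 0 of the 10 genes were higher with limma. At an adjusted p under 0.1 and any fold change, 1406 genes were lower, and of the 10 genes 4 were higher and 2 lower. The edgeR fit called 1144 higher and 578 lower genes, and DESeq2 1180 and 721, with 3 of the 10 genes higher in each, *Klf6* being the third. Scaling to equal totals gave 1419 higher and 602 lower genes and quantile normalization 1095 and 811. These scalings and the other settings moved the median of all genes by less than 0.1 on the log2 scale.

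Same-numbered WT and hnRNPL-deficient libraries had deviations correlated at 0.429, 0.32 and 0.0663, and differently numbered ones at -0.458 to 0.305. The labels do not say whether the numbers pair the mice, and these values cannot decide it. The main fit took no pairs. With the replicate block, 1755 genes were higher and 1018 lower, and 2 of the 10 genes were higher as without it. FoxO targets called higher were 9 to 11 over the 17 alternative fits and those called lower were 2, against 2 and 1 at an adjusted p under 0.05 and at least 2-fold, and 14 and 3 at an adjusted p under 0.1 and any fold change. These counts were added after the data were seen. With 3 mice a group, intervals for *Pik3ip1*, *Foxo4* and *Klf2* leave room for changes of either sign.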
